A study of Homo sapiens with 6 samples.

Results

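The genes of major histocompatibility complex (MHC) class I antigen presentation were followed in thyroid cancer cells with and without silencing of GDF15. They were 9 genes, taken by symbol from the 34738 genes of the deposited table: the heavy chain genes HLA-B, HLA-C, HLA-E and HLA-F, the light chain gene B2M, the peptide transporter genes TAP1 and TAP2, the tapasin gene TAPBP and the regulator gene NLRC5. All 9 were among the 11867 genes with a mean level of at least 1 FPKM (a fragment count relative to library size and gene length), which were the genes tested. The 9 were chosen with their values in this same contrast known, so their values are given as a description without a test. HLA-E was also among the genes that the study itself displayed.

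RNA was sequenced from the human thyroid cancer line KHM-5M in 2 groups of 3 libraries, cells transfected with an siRNA against GDF15 (siGDF15) and control cells (NC). The siRNA was delivered with a lipid reagent, and GDF15 encodes growth differentiation factor 15, a secreted stress-responsive cytokine. The paper lists a negative control siRNA and names the sequenced controls negative control cells, whereas a legend names vector control cells. The sources also name NC a blank control. If NC cells received no siRNA, the effect of transfection and that of silencing cannot be told apart. The labels name KHM-5M, whereas the legend of a display of these data names the line TPC-1. The methods call the 3 libraries of a group biological replicates without describing how they were grown. Each p-value from a fit weighs the group difference against the spread between these libraries.

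MHC class I molecules display short peptides from the inside of the cell at its surface, where CD8+ T cells read them. The proteasome cuts proteins into peptides, the TAP1 and TAP2 proteins together carry the peptides into the endoplasmic reticulum, and tapasin holds the empty class I molecule beside the transporter until a peptide fits. The heavy chain must pair with beta-2 microglobulin, the B2M product, to be stable. Transcription of these genes is driven by NF-kappa B and interferon regulatory factor (IRF) sites and by a module of X and Y boxes on which NLRC5 acts, and interferon gamma is the classical inducer. HLA-B and HLA-C are classical heavy chains. HLA-E and HLA-F are nonclassical ones, and HLA-E is the ligand of the NKG2A and NKG2C receptors of natural killer cells.

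Promoter sequences are shown because they carry the elements through which class I genes are usually controlled together. RefSeq (GRCh38.p14) gave a sequence for 7 of the 9 genes, and the 250 bases before the start site are printed for 5 of them (for TAP1, the upstream-most start listed), 5′ to 3′ on the strand of the gene. Capitals mark matches to an IRF-like element, AANNGAAA, or to a kappa B-like element (GGG, any 2 bases, TT, any base, CC), on either strand. The HLA-B window lies at chr6:31357180-31357429 (minus strand) and the B2M window at chr15:44711267-44711516 (plus strand). TAPBP has its window at chr6:33314079-33314328, TAP1 at chr6:32853705-32853954 and TAP2 at chr6:32838740-32838989, all on the minus strand.
HLA-B: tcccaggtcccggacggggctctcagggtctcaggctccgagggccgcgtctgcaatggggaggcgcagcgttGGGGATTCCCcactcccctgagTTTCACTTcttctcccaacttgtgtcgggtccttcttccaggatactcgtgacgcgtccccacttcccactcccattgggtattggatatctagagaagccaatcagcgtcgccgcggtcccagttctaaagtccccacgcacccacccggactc
B2M: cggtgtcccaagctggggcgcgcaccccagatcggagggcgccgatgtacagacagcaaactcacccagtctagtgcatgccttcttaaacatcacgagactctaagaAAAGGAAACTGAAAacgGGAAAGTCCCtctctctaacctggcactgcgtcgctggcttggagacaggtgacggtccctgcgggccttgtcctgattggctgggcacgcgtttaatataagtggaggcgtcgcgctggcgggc
TAPBP: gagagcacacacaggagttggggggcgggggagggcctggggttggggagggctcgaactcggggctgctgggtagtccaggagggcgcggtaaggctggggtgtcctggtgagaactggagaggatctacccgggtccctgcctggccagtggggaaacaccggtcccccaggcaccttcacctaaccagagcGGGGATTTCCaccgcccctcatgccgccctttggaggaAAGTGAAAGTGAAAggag
TAP1: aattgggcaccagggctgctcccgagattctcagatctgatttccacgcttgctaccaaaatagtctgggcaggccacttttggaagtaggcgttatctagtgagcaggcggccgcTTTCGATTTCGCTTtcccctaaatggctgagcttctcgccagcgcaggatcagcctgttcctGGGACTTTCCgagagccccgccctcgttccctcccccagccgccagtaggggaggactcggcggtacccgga
TAP2: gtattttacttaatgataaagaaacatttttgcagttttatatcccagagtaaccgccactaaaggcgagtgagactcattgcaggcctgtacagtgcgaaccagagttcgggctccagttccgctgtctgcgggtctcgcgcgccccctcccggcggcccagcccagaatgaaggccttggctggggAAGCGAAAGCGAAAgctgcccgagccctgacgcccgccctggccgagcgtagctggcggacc

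An IRF-like element lay in the window of all 7 matched genes, which also include HLA-C and HLA-F, against 20.3% of 35116 promoters of the same length. TAP2, TAP1, TAPBP and B2M each held 2 overlapping copies, and HLA-B, HLA-C and HLA-F held 1. The kappa B-like element lay in the windows of HLA-B, TAP1, TAPBP and B2M, against 5.07% of promoters. ATTGG, the core of a Y box, which does not overlap the other motifs here, was searched on both strands too. It was matched in HLA-B (3 times), HLA-C (4), HLA-F (2), TAP1 (1) and B2M (1), against 32.0% of promoters, and not in the windows of TAP2 or TAPBP. TAP1 lies head to head with PSMB9, a catalytic subunit of the immunoproteasome, with 488 bases between their start sites. These matches describe letters only, and the letters were chosen after the promoters of the 9 genes had been seen. TAP1, whose level overlapped between groups, and TAP2, whose level was lower in siGDF15, held the IRF-like element, as did the 5 matched genes that were higher.

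In every siGDF15 library, GDF15 was lower than in every NC library, at 10.8, 10.5 and 10.7 FPKM against 22.4, 19.3 and 23.1. Its fitted log2 fold change was −0.92 (SE 0.079, edgeR quasi-likelihood adjusted p = 2.4e-05). The exact two-sided permutation test on its FPKM gave p = 0.1, the smallest that 3 libraries against 3 allow. Total expected counts ranged from 51738814 to 68025163 per library, the lowest being siGDF15 replicate 2. Mitochondrial genes held 6.39 to 6.78% of counts in NC and 8.53 to 9.17% in siGDF15, and the part of this difference in the results was not tested. Of the tested genes, 61.4% were called at an adjusted p under 0.05, 30% higher and 31.4% lower in siGDF15. Scaling by total counts without TMM (trimmed mean of M values) normalization changed the balance, since 36.6% of the genes called were then higher in place of 48.9%, and the median of all genes moved to −0.10. Scaling to equal medians gave 55.8%.

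Of the 9 class I genes, 7 were higher in every siGDF15 library than in every NC library, TAP2 was lower in every one, and TAP1 overlapped. Over all tested genes 25.6% lay apart in the higher direction and 42.8% in the lower direction, 68.4% in all. Nothing is read from this count, because the genes were chosen from this contrast. Their fitted log2 fold changes ran from −0.70 for TAP2 to 1.54 for HLA-E, with a median of 0.66 beside 0.00 for all tested genes. HLA-B and HLA-E, the 2 genes at or above 1, passed a size limit that 3.03% of tested genes passed upward with a call and 4.78% passed downward. Over all the settings tried, the direction of every gene but TAP1 stayed the same. The fits read the deposited expected counts with TMM scaling, which placed fold changes slightly above the plain ratio of FPKM.

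**Figure D1:**
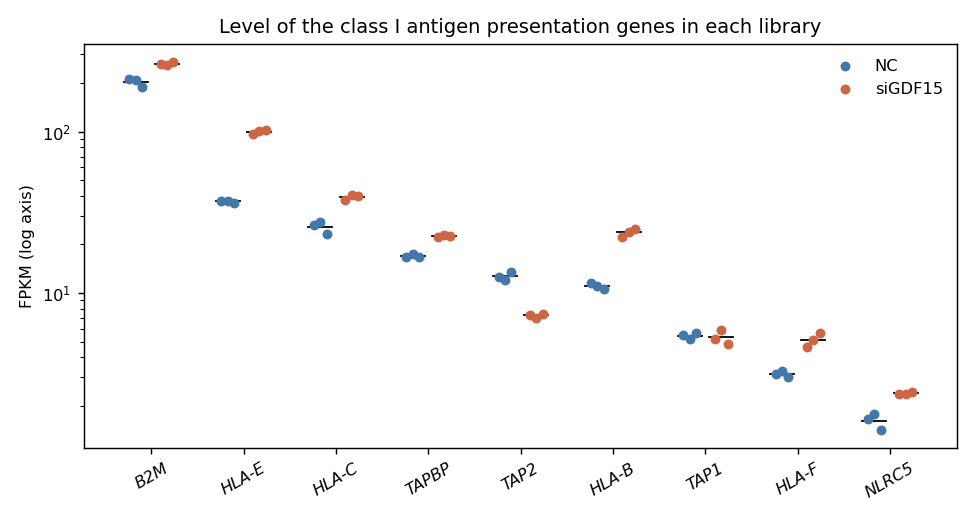
Level of the 9 class I antigen presentation genes in each library, in FPKM on a log axis, ordered by the NC mean. Points are libraries (3 NC, 3 siGDF15) and lines are group means. The groups lie apart for every gene except TAP1, and TAP2 is the gene with its siGDF15 points below NC.

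Among the heavy chains, HLA-E (ENSG00000204592, chr6:30489509-30494194, plus strand) differed most. It was at 37.2, 37.4 and 36.2 FPKM in NC and at 96.2, 100.2 and 103 FPKM in siGDF15. All siGDF15 libraries stood far above all NC libraries, and the group means were 36.9 ± 0.639 and 99.8 ± 3.39 FPKM (SD, n = 3). The fitted log2 fold change was 1.54 (SE 0.046), or 2.91-fold.

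HLA-B (ENSG00000234745, chr6:31353872-31367067, minus strand), a classical heavy chain, was at 11.5, 11.1 and 10.6 FPKM in NC and at 22.4, 23.8 and 25.1 FPKM in siGDF15. The means of 11.0 ± 0.440 and 23.7 ± 1.35 FPKM (SD, n = 3) did not come near each other. Its log2 fold change was 1.21 (SE 0.058), which is 2.31-fold. In the deposited table its gene model begins upstream of the RefSeq start used for the promoter above, and reaches over DHFRP2 and MIR6891 on the same strand.

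HLA-C (ENSG00000204525, chr6:31268749-31272130, minus strand), the ligand of many killer cell immunoglobulin-like receptors, was at 26.2, 27.4 and 23.3 FPKM in NC and at 37.9, 40.5 and 40.1 FPKM in siGDF15. NC replicate 3 was the lowest of the libraries. The means were 25.6 ± 2.07 and 39.5 ± 1.40 FPKM (SD, n = 3), with a log2 fold change of 0.73 (SE 0.065).

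HLA-F (ENSG00000204642, chr6:29722775-29729351, plus strand), a nonclassical heavy chain, had the lowest level of the heavy chains. Its values were 3.16, 3.29 and 3.01 FPKM in NC and 4.63, 5.12 and 5.64 FPKM in siGDF15, again without overlap. The log2 fold change was 0.81 (SE 0.087).

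Heavy chain genes are alike in sequence, and reads may be split between them. In the GENCODE release 29 transcripts, the share of 50-base windows that also occur in another gene was 6.71% for HLA-C, 5.13% for HLA-E, 2.54% for HLA-B and 1.70% for HLA-F.

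The 4 heavy chains summed to 78.1, 79.1 and 73.1 FPKM in NC and to 161, 170 and 174 FPKM in siGDF15. The means were 76.8 ± 3.19 and 168 ± 6.46 FPKM (SD, n = 3), a ratio of 2.19. Reads moving among these 4 genes would leave a sum of counts as it is. They can shift this sum, because FPKM is scaled by gene length.

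The makeup of this heavy chain RNA differed between groups as well. HLA-E took 48.1 ± 1.196% of the summed FPKM of the 4 genes in NC and 59.3 ± 0.328% in siGDF15 (SD, n = 3), and the libraries did not overlap. HLA-C went from 33.4 to 23.5% and HLA-F from 4.11 to 3.05%, both without overlap. The share of HLA-B, 14.4% in NC and 14.1% in siGDF15, overlapped between groups. On expected counts in place of FPKM, HLA-E took 45.6% in NC and 55.8% in siGDF15. A unit of FPKM stood for 347 counts in HLA-B but for 188 in HLA-C and 219 in HLA-E, because the FPKM of HLA-B is scaled by a longer length. The share of HLA-B is therefore larger on counts, at 21.6% in NC and 21.0% in siGDF15.

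**Figure D2:**
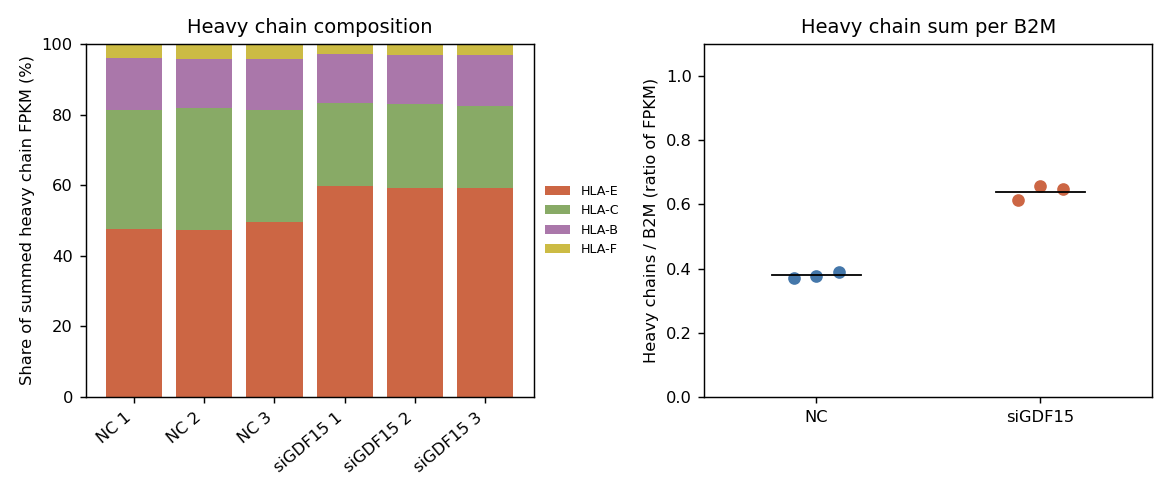
Left, share of the summed FPKM of HLA-B, HLA-C, HLA-E and HLA-F in each library (%); right, the sum of the 4 per B2M (ratio of FPKM), with points for libraries and lines for group means. The HLA-E share goes from 48.1 to 59.3% and the heavy chain sum per B2M from 0.380 to 0.640.

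B2M (ENSG00000166710, chr15:44711358-44718145, plus strand), the light chain shared by these heavy chains, had the highest level of the 9 genes. It was at 210, 209 and 188 FPKM in NC and at 262, 259 and 268 FPKM in siGDF15, with no overlap and with NC replicate 3 the lowest. The means were 202 ± 12.6 and 263 ± 4.81 FPKM (SD, n = 3), and the log2 fold change of 0.48 (SE 0.050) was smaller than that of each of the 4 heavy chains. The 4 heavy chains per B2M thus went from 0.372, 0.378 and 0.389 in NC to 0.615, 0.656 and 0.648 in siGDF15. These ratios compare RNA levels per length and say nothing of protein.

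The transporter genes TAP1 and TAP2 differed from each other. TAP1 (ENSG00000168394, chr6:32845209-32853717, minus strand) was at 5.46, 5.22 and 5.64 FPKM in NC and at 5.17, 5.91 and 4.86 FPKM in siGDF15. The highest and the lowest library both belonged to siGDF15, and the groups overlapped. Its log2 fold change was 0.07 (SE 0.087) and ran from −0.04 to 0.14 over the settings tried, so that TAP1 has no stable direction.

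TAP2 (ENSG00000204267, chr6:32821833-32838739, minus strand) was at 12.5, 12.0 and 13.5 FPKM in NC and at 7.35, 7.00 and 7.45 FPKM in siGDF15. The siGDF15 values all lay below those of NC, and the log2 fold change was −0.70 (SE 0.058), or 1.62-fold lower. TAP2 FPKM per TAP1 FPKM was 2.32 ± 0.0613 in NC and 1.38 ± 0.178 in siGDF15 (SD, n = 3). Of the 50-base windows of its GENCODE release 29 transcript, 35.8% also occur in a read-through gene on the same strand, ENSG00000250264. That gene was at 2.15, 1.77 and 2.55 FPKM in NC and 1.80, 1.84 and 1.32 FPKM in siGDF15, and the groups overlapped. It was not called (log2 fold change −0.28, edgeR adjusted p = 0.25). The part of shared reads in the TAP2 values was not tested.

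TAPBP (ENSG00000231925, chr6:33299694-33314267, minus strand), which encodes tapasin, was at 16.8, 17.5 and 16.7 FPKM in NC and at 22.3, 22.8 and 22.6 FPKM in siGDF15. The groups lay apart, with means of 16.97 ± 0.448 and 22.6 ± 0.241 FPKM (SD, n = 3) and a log2 fold change of 0.52 (SE 0.042). TAPBP per TAP2 was 1.35 in NC and 3.11 in siGDF15.

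NLRC5 (ENSG00000140853, chr16:56989485-57083524, plus strand), the class I transactivator, had the lowest level of the 9. It was at 1.66, 1.77 and 1.42 FPKM in NC and at 2.36, 2.38 and 2.43 FPKM in siGDF15, without overlap. The log2 fold change was 0.66 (SE 0.081), and it ran from 0.37 to 0.73 over the settings, lowest with a pseudocount of 1 FPKM, which understates low genes.

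By mean FPKM in NC the order was B2M, HLA-E, HLA-C, TAPBP, TAP2, HLA-B, TAP1, HLA-F and NLRC5, and no neighbours in that order overlapped. In siGDF15 HLA-B came next after HLA-C and overlapped TAPBP, and TAP1 overlapped HLA-F, whereas the other neighbours lay apart. HLA-E moved closer to B2M, since B2M was 5.48 times HLA-E in NC and 2.64 times in siGDF15. Coefficients of variation within a group ran from 1.07 to 11.0% over the 9 genes, the spread between libraries being small beside the differences named, TAP1 excepted.

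Around these genes, 69 tested genes of the class I pathway were counted from lists of related genes. Of them 22 rose and 20 fell (edgeR adjusted p under 0.05), that is 31.9 and 28.99%, close to the 30 and 31.4% of all tested genes. The median log2 fold change was 0.03. Without TMM the counts were 16 higher and 27 lower, and after scaling all libraries to equal medians they were 25 and 17.

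**Figure D3:**
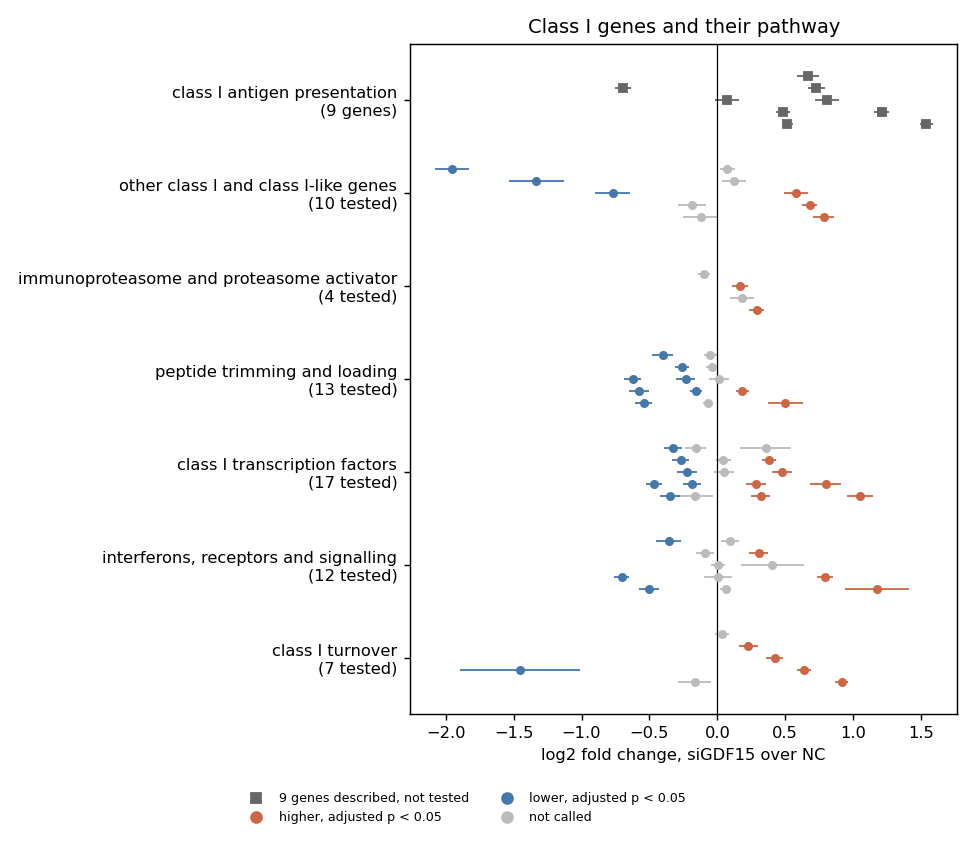
Fitted log2 fold change of siGDF15 over NC for the 9 class I genes (squares, described only) and for 6 of the 7 lists of pathway genes, that of the constitutive proteasome left out (circles, colored by the edgeR call at an adjusted p of 0.05); bars are standard errors. Calls lie on both sides of 0 in each list plotted except that of the immunoproteasome, where both called genes are higher. Over all tested genes 30% were called higher and 31.4% lower.

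The immunoproteasome is the form of the proteasome, induced by interferon gamma, that favors class I peptides. Of its 5 genes with the PA28 activator, 4 were tested, 2 rose and 2 were not called. The 2 that rose are 50% of those tested, beside 30% of all tested genes called higher. PSME1, a PA28 subunit, rose by a log2 fold change of 0.29 (edgeR adjusted p = 0.0016). PSMB8 was at 11.2, 10.7 and 10.3 FPKM in NC and 11.3, 11.4 and 11.0 FPKM in siGDF15. Its log2 fold change of 0.17 (edgeR adjusted p = 0.036) was not called in 11 of 14 alternative settings, where the adjusted p reached 0.37. PSMB10 (0.18, edgeR adjusted p = 0.12) and PSME2 (−0.10, edgeR adjusted p = 0.0996) did not pass, and PSME2 was called lower without TMM. PSMB9, head to head with TAP1, missed the filter at 0.641, 0.653 and 0.671 FPKM in NC and 0.350, 0.576 and 0.572 FPKM in siGDF15. With a filter of 0.1 FPKM its log2 fold change was −0.31 (edgeR adjusted p = 0.34). PSMB9 and TAP1 overlap on opposite strands in the deposited positions, and whether counting used strand is not stated.

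The catalytic subunits of the constitutive proteasome and other activators numbered 6, of which 2 rose and 4 were not called. The 2 that rose are 33.3%, close to the 30% of all tested genes. PSMB5 had a log2 fold change of 0.24 (edgeR adjusted p = 0.010) and PSME4, the PA200 activator, 0.15 (edgeR adjusted p = 0.026), but these calls were lost in 4 and 9 of 14 alternatives. PSMB6, PSMB7, PSME3 and POMP did not pass.

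Of 13 genes that trim peptides or load them, 7 fell and 2 rose, with a median of −0.16. The 7 are 53.8% of the list, beside 31.4% of all tested genes that were called lower. The 2 are 15.4%, beside 30% called higher, and 4 genes were not called. Named here are the 4 with the smallest adjusted p, all of them lower, so they do not stand for the whole list. ERAP1, the endoplasmic reticulum aminopeptidase that cuts peptides to class I length, was at 7.96, 8.66 and 7.49 FPKM in NC and 5.04, 4.64 and 4.87 FPKM in siGDF15. ERAP1 fell by 0.62 on the log2 scale (edgeR adjusted p = 5.9e-05). LNPEP, an aminopeptidase of endosomal cross-presentation, fell by 0.58 (edgeR adjusted p = 2.1e-04). The cytosolic peptidases THOP1 and BLMH, which destroy or trim peptides before transport, fell by 0.54 (edgeR adjusted p = 1.1e-04) and 0.40 (edgeR adjusted p = 0.0020).

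Of 10 tested class I and class I-like genes outside the 9, 3 rose and 3 fell. That is 30% each way, close to the 30 and 31.4% of all tested genes. HLA-H, a class I pseudogene whose reads may come from related genes, rose by a log2 fold change of 0.58 (edgeR adjusted p = 5.4e-04). FCGRT encodes the neonatal Fc receptor heavy chain, which also pairs with beta-2 microglobulin. FCGRT went from 12.0, 13.6 and 10.8 FPKM to 18.8, 19.6 and 19.9 FPKM and rose by a log2 fold change of 0.78 (edgeR adjusted p = 5.4e-05). The 3 that fell were ligands of NKG2D, the activating receptor of natural killer cells, which do not pair with beta-2 microglobulin. Not every NKG2D ligand fell, since MICA, another one, was tested and not called (log2 fold change 0.07, SE 0.057). ULBP1 was at 4.18, 5.17 and 4.03 FPKM in NC and 1.00, 1.08 and 1.12 FPKM in siGDF15, a log2 fold change of −1.95 (SE 0.13, edgeR adjusted p = 5.2e-06). ULBP2 went from 4.62, 5.74 and 3.82 FPKM to 2.07, 1.72 and 1.44 FPKM (−1.33, edgeR adjusted p = 5.8e-04). ULBP3, named after its value was seen to complete the 3, had −0.77 (edgeR adjusted p = 9.8e-04). Groups did not overlap for any of these ULBP genes.

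Among 17 tested transcription factors of class I genes, 6 rose and 6 fell. That is 35.3% each way, near the 30 and 31.4% of all tested genes. STAT2, the signal transducer of type I interferon, was at 3.61, 3.96 and 2.98 FPKM in NC and 7.00, 6.40 and 6.97 FPKM in siGDF15. STAT2 rose by a log2 fold change of 1.05 (SE 0.095, edgeR adjusted p = 3.1e-05), and IRF7, the regulator of type I interferon genes, by 0.80 (edgeR adjusted p = 4.5e-04). RELA, the NF-kappa B subunit that binds kappa B sites, rose by 0.38 (edgeR adjusted p = 3.6e-04). NFYA, a subunit of the factor that binds the Y box, fell by 0.47 (edgeR adjusted p = 1.8e-04).

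Interferons, their receptors and signaling genes gave 12 tested genes, 3 of which rose and 3 fell. That is 25% each way, beside 30 and 31.4% of all tested genes. IFNGR1, the ligand-binding chain of the interferon gamma receptor, rose by 0.79 on the log2 scale (edgeR adjusted p = 1.1e-05). IFNE, a type I interferon of epithelia, rose from 0.520, 0.929 and 0.698 FPKM to 1.34, 1.46 and 1.72 FPKM. Its NC values all lay under 1 FPKM, so IFNE passed the filter only through siGDF15, where it was high. Its log2 fold change was 1.18 (SE 0.24, edgeR adjusted p = 0.0027), and only 0.55 with a pseudocount of 1 FPKM. TYK2, a kinase of the type I interferon receptor, fell by 0.71 (edgeR adjusted p = 1.3e-05). SOCS3, a brake on cytokine signaling, fell by 0.50 (edgeR adjusted p = 4.2e-04).

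Turnover of class I molecules was represented by 7 genes, 4 of which rose and 1 fell. In this short list that is 57.1 and 14.3%, beside 30 and 31.4% of all tested genes. HM13 encodes signal peptide peptidase, which cuts the signal peptides of class I chains from which the HLA-E ligand is made. HM13 was at 21.6, 21.2 and 21.3 FPKM in NC and 36.3, 38.9 and 37.4 FPKM in siGDF15, a log2 fold change of 0.92 (SE 0.048, edgeR adjusted p = 1.8e-06). SPPL3, a related protease, rose by 0.64 (edgeR adjusted p = 1.6e-05) and WWP2, a ubiquitin ligase, by 0.42 (edgeR adjusted p = 5.1e-04). MARCHF4, a membrane-bound ubiquitin ligase, was at 1.37, 0.747 and 3.04 FPKM in NC and 0.611, 0.520 and 0.617 FPKM in siGDF15. The siGDF15 values all lay under 1 FPKM, so MARCHF4 passed the filter only through NC, where it was high. Its log2 fold change of −1.45 (SE 0.44, edgeR adjusted p = 0.020) was lost in 4 of 14 alternatives, among them leaving out any 1 siGDF15 library. Without NC replicate 3, the highest library, it was −0.75 (edgeR adjusted p = 0.027).

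No class II presentation gene of the 10 listed in the table reached a mean of 1 FPKM, and their highest value was 0.432 FPKM. KEGG annotation in the deposited table gave 25 tested genes of antigen processing and presentation outside the 9, some already counted in the lists above. Of these 8 rose and 9 fell, or 32 and 36%, near the 30 and 31.4% of all tested genes. With scaling by total counts 7 rose and 13 fell. IFI30, a lysosomal thiol reductase that acts before class II loading, was at 16.5, 7.62 and 7.85 FPKM in NC and 56.7, 62.2 and 48.2 FPKM in siGDF15. IFI30 rose by a log2 fold change of 2.49 (SE 0.29, edgeR adjusted p = 1.2e-04), NC replicate 1 standing above the other NC libraries. LGMN, a lysosomal protease, rose by 0.66 (edgeR adjusted p = 1.1e-04). HSP90AA1, an inducible cytosolic chaperone, fell by 1.07 (edgeR adjusted p = 2.0e-04), as did the near-identical heat shock genes HSPA1A (−1.33, edgeR adjusted p = 5.7e-06) and HSPA1B (−1.56, edgeR adjusted p = 1.8e-06), whose reads may be split between them.

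Because 7 of the 9 genes lie on chromosome 6 between HLA-F and TAPBP (chr6:29722775-33314267), their neighbors were examined. Of 88 other tested genes in this interval 23 rose and 30 fell, or 26.1 and 34.1% beside 30 and 31.4% of all tested genes, with a median log2 fold change of −0.12 against 0.00 for all tested genes. The balance depended on the setting, with 20 higher and 40 lower without TMM, 25 and 22 after scaling all libraries to equal medians, and 22 and 22 without NC replicate 1. The called genes whose log2 fold change reached 1 in size were 8, all lower in siGDF15. Over all tested genes 3.03% were called higher and 4.78% lower at that size. The 8 include the near-identical HSPA1A and HSPA1B, and ENSG00000280128, called higher at 0.9985, lay just under the limit. TCF19, a gene of cell proliferation, fell from 22.9, 23.2 and 23.8 FPKM to 6.03, 5.41 and 5.42 FPKM (log2 fold change −1.94, edgeR adjusted p = 4.2e-07). The unnamed gene ENSG00000263020 had −2.37 (edgeR adjusted p = 2.0e-04). With limma it was −2.38 at a pseudocount of 0.1 FPKM but only −1.47 at 1 FPKM. That gap places its siGDF15 level under 1 FPKM, so it passed the filter only through NC, where it was high. For ENSG00000272540 the value was −2.55 (edgeR adjusted p = 0.018), but NC replicate 1, at 1.01 FPKM, lay below the siGDF15 libraries. That call was lost in 4 of 14 alternatives, with limma at either pseudocount and without siGDF15 replicate 1 or 3, where the limma or edgeR adjusted p reached 0.083.

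**Figure D4:**
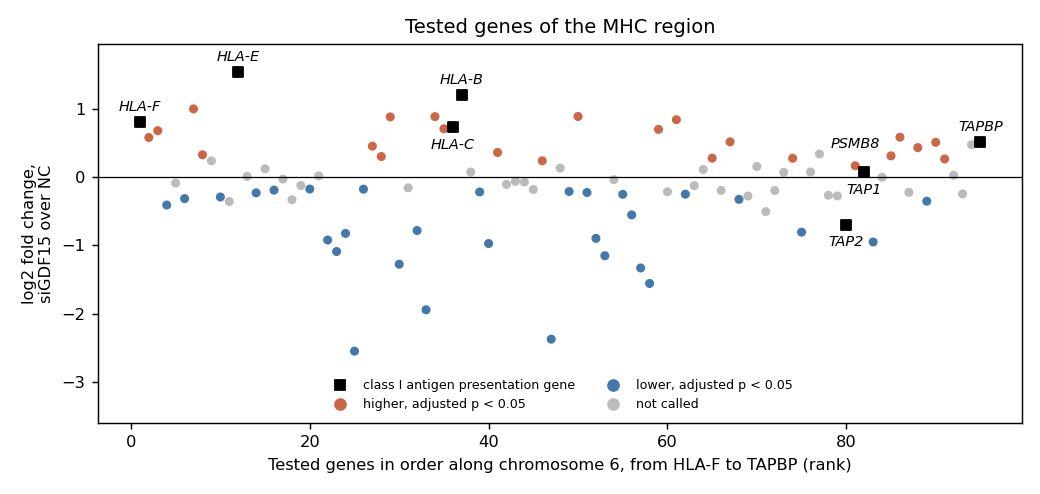
Fitted log2 fold change of siGDF15 over NC for every tested gene from HLA-F to TAPBP on chromosome 6, in order of position (rank). Squares are the class I genes and circles the other 88 tested genes, of which 23 were called higher and 30 lower by edgeR. The 8 called with a size of 1 or more all lie below 0. Over all tested genes 3.03% were called higher and 4.78% lower at that size.

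The 5 genes closest to the mean profile of the 9 were EEF1A1P6, FTH1P2, NUDT14, HCN2 and RTL8C. Likeness was Pearson's r over the 6 libraries between a gene's log2 CPM and the mean standardized log2 CPM of the 9, and it was at least 0.998 for each. The 9 do not share 1 pattern, since TAP2 ran opposite to the 7 higher genes (r from −0.996 to −0.972) and TAP1 followed them weakly. The mean thus follows those 7. Among 11858 genes 181 had r over 0.99, and with 3 libraries a side such values follow from any clear split between groups. EEF1A1P6 and FTH1P2 are pseudogenes, whose reads may come from their parent genes. HCN2, an ion channel gene, went from 7.53, 7.501 and 7.24 FPKM to 14.3, 16.7 and 15.5 FPKM.

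Cell type markers were read beside these values. PAX8, a thyroid transcription factor, was at 54.3 to 64.9 FPKM in NC and 77.5 to 80.4 FPKM in siGDF15, whereas the thyroid genes TG, SLC5A5 and NKX2-1 were at or near 0. Of the 3 thyroid markers tested, PAX8 rose (log2 fold change 0.53, edgeR adjusted p = 1.2e-04), HHEX fell by 0.56 on the log2 scale (edgeR adjusted p = 0.0014) and FOXE1 did not pass (0.14, edgeR adjusted p = 0.22). All 6 epithelial markers were tested, and their summed level was 108 to 160 FPKM in NC and 136 to 147 FPKM in siGDF15. Of them CDH1, the E-cadherin gene, was called higher (0.61, edgeR adjusted p = 0.049) and the other 5 were not called. The CDH1 call lay close to the limit of 0.05, and the FPKM of the groups overlapped for all 6. The part of these markers in the class I values was not tested. Of 12 immune cell markers, 8 were matched and none reached a mean of 1 FPKM. Their summed level was 0.346 to 0.542 FPKM in NC and 0.731 to 1.16 FPKM in siGDF15, of which CD14 gave 0.107 to 0.249 and 0.592 to 0.739 FPKM. PTPRC, the pan-leukocyte marker, was at or near 0 in every library. Since these were bulk libraries, more cells with class I RNA and more class I RNA per cell cannot be told apart.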

How the data were processed

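Poly(A) RNA of 6 libraries (3 NC, 3 siGDF15) was sequenced as read pairs with a strand-marking kit. Per the submitters' processing notes, fastp, HISAT2, StringTie and edgeR were used with GRCh38; versions, options and annotation are not given in the sources used here. The authors deposited FPKM, scaled by transcript length and library. Expected counts, also deposited, are whole numbers whose low values cluster at 4. They thus appear to be derived from coverage, and they are not taken here as tallies of reads. No per-library column was left out.

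All genes whose mean FPKM reached 1 were fitted with edgeR 4.0.16 (TMM, quasi-likelihood, two-sided, Benjamini-Hochberg over 11867 genes, call at an adjusted p under 0.05) in R 4.3.3. Alternatives were DESeq2 1.42.0, limma 3.58.1 on log2(FPKM + 1) and log2(FPKM + 0.1), other scalings, filters, a replicate block and leaving out each library. The fit was tested on simulated data with few changed genes, balanced in direction. In these data most tested genes were called, so that check says nothing of the choice of scaling. Means are given with SD over 3 libraries, and member ratios were computed from FPKM. Motifs were searched in the 250 bases upstream of RefSeq starts, and shared sequence in 50-base windows of GENCODE release 29 transcripts, whose positions equal the deposited ones for HLA-C but not for the other 8 genes.

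The 9 genes and all lists were chosen with earlier results of these data known. Named genes were the 9, GDF15, per list the called genes whose log2 fold change reached 1 in size or otherwise up to 4 by adjusted p (every gene in lists of 6 or fewer), up to 5 by size in the KEGG and MHC region sets, and the 5 most similar genes. Fold changes understate low genes where a pseudocount is used. Results for a few genes, and a planned wider heavy chain sum, are not reported here.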

Additional observations from a re-analysis of the deposited data

How the results depend on the processing

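Directions were the same for every class I gene but TAP1 in all alternatives. The median log2 fold change of the 9, 0.66, was 0.56 without TMM, 0.39 with limma on log2(FPKM + 1) and 0.54 on log2(FPKM + 0.1), and 0.59 to 0.73 when each library was left out, and the cause was not tested. The called genes whose log2 fold change reached 1 in size numbered 927, but 1669 with a mean FPKM minimum of 0.1, 1659 with no filter and 560 with limma on log2(FPKM + 1). The log2 ratio of the heavy chain sum was 1.13, and 1.097 to 1.16 when each library was left out. Leaving out libraries gave 6220 to 7423 genes called.

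The replicate numbers were checked for pairing. Same-numbered libraries had correlations of their deviations of 0.028, −0.075 and 0.046, and differently numbered ones ran from −0.135 to 0.089. With 3 libraries per group, these values cannot show whether same-numbered libraries were grown or handled together. With a replicate block 6906 genes were called, the median of the 9 was 0.67 and GDF15 had −0.91; 21 pathway genes were higher and 19 lower, 22 and 25 in the MHC region, and 8 and 9 in the KEGG set. The 3 libraries per group, expected counts in place of reads and the uncertain nature of the control limit these values.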
